A study of Mus musculus with 8 samples.

Results

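Erythroid genes were read in the RNA of Lin-Sca1+Kit+ (LSK) cells, a fraction of blood-forming cells made up of stem cells and multipotent progenitors. The group consists of 10 named genes, Gata1, Klf1, Zfpm1, Gfi1b, Epor, Ermap, Tspan33, Car1, Car2 and Cpox, taken by symbol from a count table of 26146 genes. All 10 were in the table and all 10 passed the filter on low counts, which kept 13439 genes. The study sequenced poly(A) RNA of bulk sorted mouse cells in 4 samples labelled Jmjd6 KO and 4 labelled wild type, with 1 library each. Jmjd6 encodes an oxygenase of the Jumonji family. In the labels every sample carries the same protocol line, under which Cre recombinase, driven in a cell type specific way, deletes a floxed Jmjd6 in blood lineages. The sources used here do not say which Cre was used, which exons are floxed, which alleles the wild type samples carry, how old the animals were, or whether each sample is a separate animal, so p-values measure the spread between these samples. Levels are given as CPM, each gene's counts scaled to a common library total with a correction for composition, and total counts per library ran from 9344779 to 15079960.

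Red cells arise from stem cells through progenitors that lose the lymphoid and myeloid options in turn. GATA1, with its cofactor FOG1 (the product of Zfpm1) and with KLF1, switches on the genes of haem synthesis, the globins and the red cell membrane, while GFI1B represses genes of other fates. Erythropoietin, acting through its receptor EPOR and JAK2-STAT5 signalling, keeps committed progenitors alive. Several of these factors also serve megakaryocytes and mast cells.

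The groups could be told apart by the targeted gene: Jmjd6 read 52.5, 63.7, 54.6 and 63.7 CPM in wild type libraries 1 to 4 and 28.7, 28.1, 30.7 and 27.5 CPM in KO libraries 1 to 4. The log2 fold change was -1.03 ± 0.15 (SE, adjusted p = 0.0381 by edgeR's quasi-likelihood test), and -1.06 without wild type replicate 1, where its adjusted p was 0.0986 by edgeR and no longer passed 0.05. In the annotation Jmjd6 shares 172 exon bases with Mettl23 on the opposite strand, and with no strand setting stated the reads of such an overlap cannot be assigned. Of the markers of the LSK gate, Kit read 471, 476, 500 and 446 CPM in wild type replicates 1 to 4 and 508, 493, 435 and 416 CPM in KO replicates 1 to 4, and Ly6a (Sca1) read 126, 86.1, 208 and 122 and 184, 184, 105 and 227 CPM. Of the 7 gate genes, Slamf1 and Cd48 had all KO libraries above all wild type libraries, with or without wild type replicate 1, a layout held by 2.08% and 4.06% of all tested genes. Slamf1 (CD150) read 3.98, 4.66, 9.04 and 5.17 and 10.6, 9.25, 11.9 and 11.6 CPM (log2 fold change 0.93 ± 0.29, SE, edgeR adjusted p = 0.670), and Cd48 read 211, 35.2, 186 and 129 and 258, 269, 269 and 218 CPM (0.86 ± 0.39, SE, edgeR adjusted p = 0.811). Of the lineage markers that the sort removes, Cd3e, Cd8a and Ly6g did not exceed 0.442 CPM in any library. Wild type replicate 4 and KO replicate 3 had 0 counts of 4 Y-linked genes together, against 3660 to 4814 in the other 6 libraries.

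Most of these genes stood highest in wild type replicate 1. It was the highest of the 8 libraries for 8 of the 10 erythroid genes, whereas it was the highest for 14.1% of all tested genes. For Ermap, Car1 and Klf1 it stood at least 2-fold above the next highest library, 3 of 10 genes, which was so for 0.499% of all tested genes (counted with 2 reads added to each value). In CPM as given, against the next highest library the ratio was 12.7 for Ermap, 8.22 for Car1, 3.98 for Klf1, 1.98 for Epor, 1.85 for Cpox, 1.68 for Tspan33, 1.36 for Gata1 and 1.03 for Car2. Only Zfpm1 and Gfi1b of the 10 had their highest value elsewhere, in wild type replicates 2 and 4. The 10 genes are compared between KO and wild type with all 8 libraries and again without wild type replicate 1. That split was fixed before these counts were made, but the sample titles do not set this library apart. Earlier results of these data were known, so the comparison without it is not an independent check. The 10 genes were chosen with earlier results of these data known, so the counts are a description.

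Promoter sequences of 8 of the 10 genes were at hand from RefSeq (GRCm38.p6), each running from 250 bases before to 50 bases after the start of the gene; Car1 and Car2 were not among them. They are shown for Klf1, Epor and Ermap, 3 of the genes that were highest in wild type replicate 1, and for Cpox and Tspan33. Cpox and Tspan33 were also highest there, and their KO libraries all lay below the wild type libraries. Gata1, highest there too, is not shown. Capitals mark the GATA factor words AGATAA or AGATAG or TGATAA or TGATAG and the KLF1 word CCNCNCCC (N being any base), on either strand. Klf1 lies on chromosome 8 (chr8:84901732-84902031, plus strand), Epor on chromosome 9 (chr9:21963527-21963826, minus strand) and Ermap on chromosome 4 (chr4:119189946-119190245, minus strand). Cpox lies on chromosome 16 (chr16:58669958-58670257, plus strand) and Tspan33 on chromosome 6 (chr6:29693964-29694263, plus strand).
Klf1: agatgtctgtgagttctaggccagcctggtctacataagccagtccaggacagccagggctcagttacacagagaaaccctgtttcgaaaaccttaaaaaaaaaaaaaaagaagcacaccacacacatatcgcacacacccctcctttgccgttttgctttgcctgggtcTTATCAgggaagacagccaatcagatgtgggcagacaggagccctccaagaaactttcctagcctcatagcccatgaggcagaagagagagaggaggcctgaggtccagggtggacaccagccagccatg
Epor: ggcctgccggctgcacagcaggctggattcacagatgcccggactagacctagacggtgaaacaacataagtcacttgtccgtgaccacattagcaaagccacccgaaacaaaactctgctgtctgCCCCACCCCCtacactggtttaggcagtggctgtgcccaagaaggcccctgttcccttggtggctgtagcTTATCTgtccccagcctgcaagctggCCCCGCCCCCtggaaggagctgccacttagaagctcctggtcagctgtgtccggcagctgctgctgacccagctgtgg
Ermap: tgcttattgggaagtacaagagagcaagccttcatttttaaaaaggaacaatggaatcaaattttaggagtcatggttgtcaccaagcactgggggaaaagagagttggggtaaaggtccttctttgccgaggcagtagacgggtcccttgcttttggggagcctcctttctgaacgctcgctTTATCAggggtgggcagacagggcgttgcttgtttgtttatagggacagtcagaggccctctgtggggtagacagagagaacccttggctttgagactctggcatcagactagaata
Cpox: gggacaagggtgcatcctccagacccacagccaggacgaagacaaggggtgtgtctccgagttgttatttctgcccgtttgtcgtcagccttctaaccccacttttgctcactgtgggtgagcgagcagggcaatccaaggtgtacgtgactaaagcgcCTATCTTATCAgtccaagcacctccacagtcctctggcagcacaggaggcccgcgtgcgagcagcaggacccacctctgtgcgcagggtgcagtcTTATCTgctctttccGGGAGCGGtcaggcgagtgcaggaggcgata
Tspan33: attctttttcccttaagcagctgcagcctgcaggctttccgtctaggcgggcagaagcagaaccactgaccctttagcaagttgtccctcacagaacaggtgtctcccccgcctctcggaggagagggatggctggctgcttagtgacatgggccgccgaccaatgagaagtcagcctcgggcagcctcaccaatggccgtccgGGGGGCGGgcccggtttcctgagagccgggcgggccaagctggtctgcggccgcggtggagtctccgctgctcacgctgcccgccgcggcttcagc

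A GATA word was present in 5 of the 8 promoters (Klf1, Epor, Ermap, Gfi1b and Cpox), against 29.8% of all 32851 promoters and 19.2% of the 13043 promoters of tested genes. Gata1 and Tspan33, also highest in wild type replicate 1, held none, nor did Zfpm1. In Klf1, Epor and Ermap the single GATA word began 80, 54 and 67 bases before the start site. Cpox held 3 GATA words, of which the first pair overlap by their end base and begin 91 and 86 bases before the start. The KLF1 word was present in 6 of 8, all except Klf1 and Ermap, against 49.5% of all promoters and 66.5% of those of tested genes. In Epor the KLF1 words form 2 overlapping pairs, and no GATA word overlaps a KLF1 word in these promoters. These matches describe letters only, and binding was not measured.

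Levels of the 10 genes differed widely when set per kilobase of exon (GENCODE M21). Without wild type replicate 1, Car2 stood at 361 ± 14.7 CPM per kilobase (SD, n = 7 libraries), followed by Gfi1b at 22.9 ± 8.40, Car1 at 13.4 ± 9.37 and Gata1 at 7.76 ± 3.63. The order went on with Zfpm1 at 4.93 ± 1.19, Klf1 at 4.18 ± 1.70, Epor at 3.13 ± 1.29 and Cpox at 2.29 ± 0.492 CPM per kilobase. Tspan33 and Ermap came last, at 0.700 ± 0.287 and 0.491 ± 0.310. Car2 stood apart from the next gene and Cpox from Tspan33, whereas each other pair of neighbours in this order overlapped within 1 SD. In wild type replicate 1 the order was Car2 at 393, Car1 at 271, Klf1 at 26.0, Gfi1b at 21.0 and Gata1 at 19.2 CPM per kilobase.

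**Figure D1:**
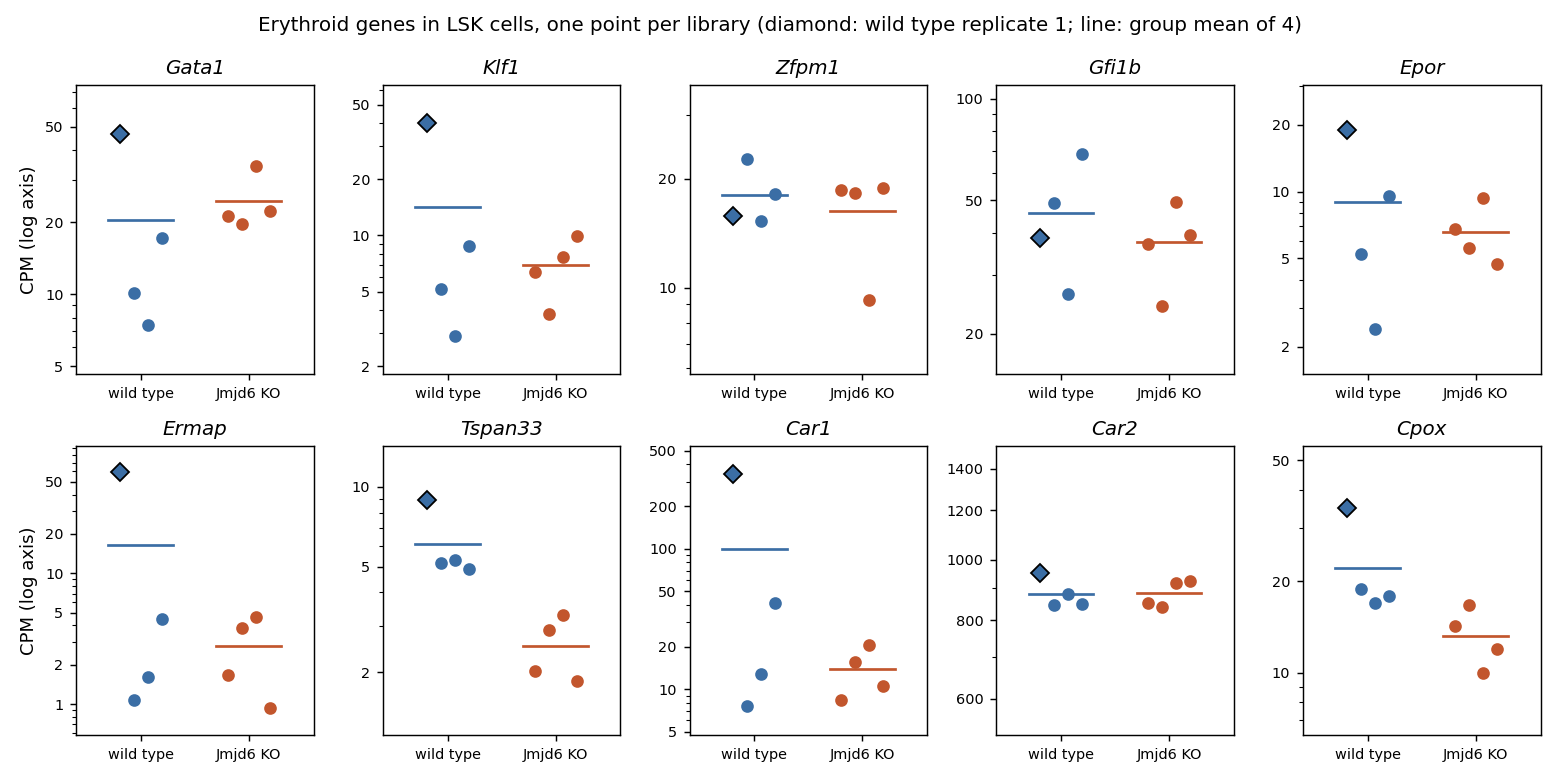
Level of each of the 10 erythroid genes in CPM (log axis) in the 4 wild type and 4 Jmjd6 KO libraries, with wild type replicate 1 as a diamond and group means as lines. Wild type replicate 1 is the highest point in 8 of 10 panels, and in Tspan33 and Cpox every KO point lies below every wild type point.

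None of the 10 genes passed an adjusted p of 0.05 between KO and wild type by edgeR, with all 8 libraries or without wild type replicate 1. The background was 0.0595% of genes called with all libraries and 0.0145% without wild type replicate 1. With all 8 libraries limma voom called 0 of the 10 as well, and DESeq2 called 0 of the 9 to which it gave an adjusted p, Ermap being without one. At an unadjusted p under 0.05, 4 of the 10 were lower in KO with all 8 libraries (Tspan33, Car1, Cpox and Ermap) against 3.28% of all genes, and 0 of 10 were higher against 2.78%. Without wild type replicate 1 it was 1 lower (Tspan33) against 3.15%, and 1 higher (Gata1) against 2.84%. The median log2 fold change of the 10 was -0.59 with all libraries, with 8 of 10 below 0, and -0.07 without wild type replicate 1, with 5 of 10 below 0. Over all tested genes the medians were 0.00 and 0.02.

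Among the transcription factor genes, Gata1 (chromosome X, 7959260 to 7978071, minus strand, mm10), the master regulator of the erythroid and megakaryocyte lineages, read 46.8, 10.2, 7.43 and 17.2 CPM in wild type replicates 1 to 4 and 21.3, 19.7, 34.4 and 22.3 CPM in KO replicates 1 to 4. The other 3 wild type libraries lay below all 4 KO libraries, and wild type replicate 1 lay above all of them. Its log2 fold change was 0.27 ± 0.48 (SE, edgeR adjusted p = 0.923) with all libraries. Without wild type replicate 1 it was 1.09 ± 0.33 (SE), from 11.6 ± 5.01 CPM in 3 wild type libraries to 24.4 ± 6.72 CPM in 4 KO libraries, at an adjusted p of 0.598 by edgeR. It was then the 1 gene of the 10 whose KO libraries all lay above wild type, which held for 4.06% of tested genes, and with all 8 libraries 0 of the 10 did, against 2.08%. Gata1 is X-linked, and the KO library with the highest value, replicate 3, is 1 of the 2 without Y-linked counts; with that library also left out the log2 fold change was 0.86 and with both such libraries and wild type replicate 1 left out 1.27, at adjusted p of 0.443 and 0.241 by edgeR. Summed markers of some other cell types lay in the same order as Gata1. Outside wild type replicate 1, the mast cell and basophil sum read 13.4 to 47.5 CPM in wild type and 62.7 to 131 CPM in KO. The granulocyte-monocyte sum read 1049 to 1332 and 1639 to 2447 CPM. In both sums these wild type libraries lay below all KO libraries, whereas the summed megakaryocyte markers, at 416 to 559 and 364 to 423 CPM, were overlapping. In KO most of each sum was 1 gene: Cpa3 averaged 71.1 of 93.8 CPM and Mpo 1264 of 1917 CPM. Without wild type replicate 1, 4 of 6 tested mast cell and basophil markers and 8 of 9 granulocyte-monocyte markers lay above a log2 fold change of 0. Gzmb, Prss34 and Csf1r gave -1.71, -0.39 and -0.43, and the groups overlapped for Elane, Prtn3, Gfi1 and Cebpe. The part of these cell types in the Gata1 values was not tested.

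Klf1 (chromosome 8, 84901928 to 84905291, plus strand), whose product activates adult globin and membrane genes, read 39.8, 5.19, 2.91 and 8.76 CPM in wild type libraries 1 to 4 and 6.42, 3.80, 7.70 and 9.99 CPM in the KO libraries. All KO values lay within the wild type range. The log2 fold change went from -1.001 ± 0.67 (SE) to 0.32 ± 0.43 (SE) without that library, with adjusted p of 0.833 and 0.916 by edgeR, so its direction rested on 1 library. Zfpm1 (chromosome 8, 122282141 to 122337251, plus strand), which encodes the GATA1 cofactor FOG1, ranged from 15.3 to 22.7 CPM in wild type and from 9.23 to 18.8 CPM in KO. Its lowest value was that of KO replicate 3, and the other 3 KO libraries lay within the wild type range. Gfi1b (chromosome 2, 28609450 to 28621982, minus strand), which encodes a zinc finger repressor of erythroid and megakaryocyte cells, ranged from 26.2 to 68.8 CPM in wild type and from 24.3 to 49.3 CPM in KO, and these ranges overlapped. The log2 fold changes of Zfpm1 and Gfi1b were -0.15 and -0.28 with all libraries and -0.19 and -0.34 without wild type replicate 1, with SE between 0.26 and 0.33.

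Epor (chromosome 9, 21958897 to 21963506, minus strand), the erythropoietin receptor gene, read 18.9, 5.25, 2.41 and 9.52 CPM in wild type libraries 1 to 4 and 6.77, 5.55, 9.38 and 4.73 CPM in the KO libraries. The KO values lay inside the range of the other 3 wild type libraries, and the log2 fold change moved from -0.44 ± 0.50 (SE) to 0.21 ± 0.44 (SE) without wild type replicate 1. The smallest count behind these values was 24 reads, in wild type replicate 3. Of 10 genes of Epo receptor signalling, all were tested, 0 were called by edgeR, and 2 lay above 0 and 8 below, between -0.40 and 0.27. The 4 with the highest level gave log2 fold changes -0.03 (Kit, the stem cell factor receptor), -0.15 (Stat5b), -0.09 (Stat5a) and -0.02 (Lyn, a Src family kinase). Wild type replicate 1 was the highest library for Epor but for none of these 10, where it was so for 14.1% of all tested genes. With so few genes a count of none is near that share.

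**Figure D2:**
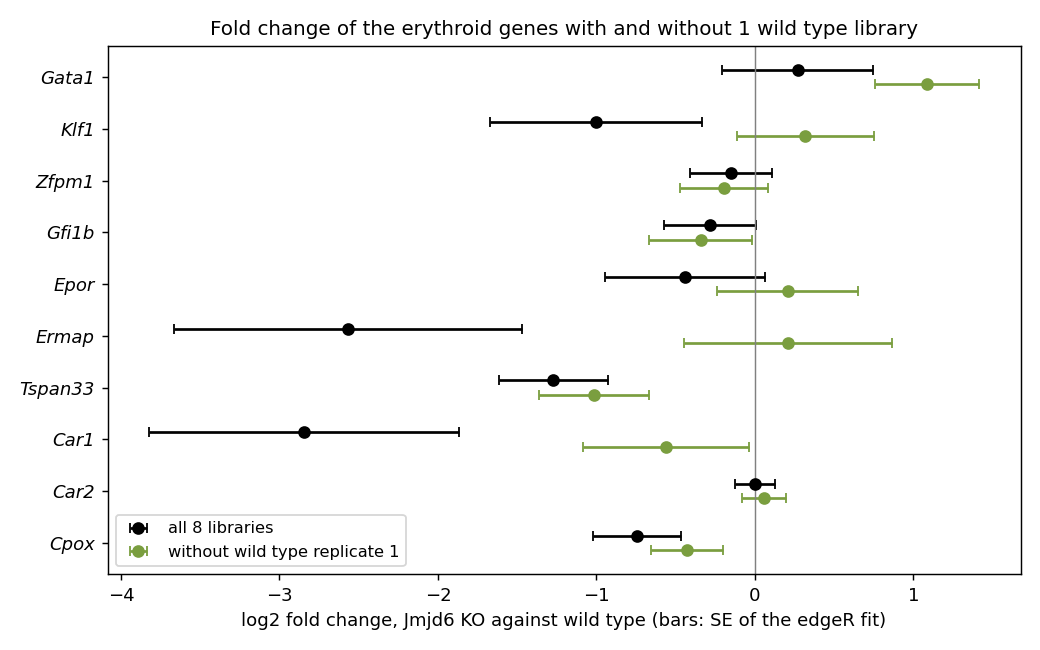
Log2 fold change of each gene in Jmjd6 KO against wild type from the edgeR fit, with its SE as the bar, for all 8 libraries (black) and without wild type replicate 1 (green). Car1 and Ermap move from -2.85 and -2.57 to -0.56 and 0.21, whereas Tspan33 stays at -1.27 and -1.01.

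Of the genes for surface proteins, Ermap (chromosome 4, 119175457 to 119190011, minus strand), which encodes an erythroid membrane protein of the butyrophilin family, read 59.1, 1.06, 1.61 and 4.48 CPM in wild type libraries 1 to 4 and 1.67, 3.80, 4.65 and 0.930 CPM in the KO libraries. Outside wild type replicate 1 the counts were 12 to 71 reads, and the groups overlapped. The log2 fold change was -2.57 ± 1.10 (SE, edgeR adjusted p = 0.797), and 0.21 ± 0.65 (SE) without wild type replicate 1.

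Tspan33 (chromosome 6, 29694222 to 29718559, plus strand), which encodes a tetraspanin of erythroid progenitors and activated B cells, read 8.94, 5.19, 5.32 and 4.92 CPM in wild type libraries 1 to 4 and 2.02, 2.88, 3.28 and 1.86 CPM in the KO libraries. Every KO library lay below every wild type library, and the 3 wild type libraries other than replicate 1 were within 0.5 CPM of each other. The log2 fold change was -1.27 ± 0.34 (SE) with all libraries and -1.01 ± 0.35 (SE) without wild type replicate 1. By edgeR the unadjusted p was 0.00305 and 0.0148, and the adjusted p 0.501 and 0.688, so the difference did not pass over all genes. Its adjusted p with all 8 libraries was 0.0922 by DESeq2 and 0.144 by limma voom. Tspan33 and Cpox were the 2 of 10 genes with all KO libraries below all wild type libraries, a pattern held by 2.11% of tested genes, and by 4.49% once wild type replicate 1 was left out, when the same 2 showed it.

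Cpox (chromosome 16, 58670292 to 58717636, plus strand) encodes coproporphyrinogen oxidase, a mitochondrial enzyme late in haem synthesis. It read 34.9, 18.9, 17.0 and 17.9 CPM in wild type libraries 1 to 4 and 14.3, 16.7, 9.99 and 12.01 CPM in the KO libraries, without overlap, although KO replicate 2 lay only just below wild type replicate 3. The wild type mean was 22.2 ± 8.52 CPM and the KO mean 13.2 ± 2.87 CPM (SD, n = 4 each), and the wild type mean was 17.9 ± 0.957 CPM over 3 libraries without replicate 1. The log2 fold change was -0.74 ± 0.27 (SE, edgeR adjusted p = 0.772) and -0.43 ± 0.23 (SE, edgeR adjusted p = 0.836) without that library. In GENCODE, Cpox shares 204 exon bases with Gpr15 on the opposite strand, which averaged 0.330 CPM.

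Among the genes of the haem pathway, every KO library lay below every wild type library for Cpox and Ppox, 2 of 13, where 2.11% of all tested genes had that layout (4.49% without wild type replicate 1), and the KO libraries stood above for none. All 13 genes of haem synthesis and its carriers were tested, 0 were called by edgeR, and 8 lay above 0 and 5 below, and their log2 fold changes had a median of 0.03 (0.15 without wild type replicate 1). Ppox, whose enzyme takes the product of Cpox one step on, read 77.1, 86.7, 71.6 and 75.2 CPM in wild type libraries 1 to 4 and 71.1, 64.5, 42.1 and 44.7 CPM in the KO libraries. All 4 KO libraries lay below all wild type libraries, with a log2 fold change -0.48 ± 0.19 (SE) and -0.47 without wild type replicate 1, at an edgeR adjusted p of 0.772. Of the enzymes upstream, those shown gave 0.09 (Alas1, the housekeeping first enzyme), -0.58 (Alas2, its erythroid form), 0.01 (Alad), 0.30 (Uros) and 0.26 (Urod), and Fech, which inserts the iron, gave 0.19; none passed by edgeR. Alas2 read between 0.775 and 3.53 CPM in all libraries, against 53.8 to 106 CPM for Alas1, a comparison of levels that does not correct for transcript length.

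**Figure D3:**
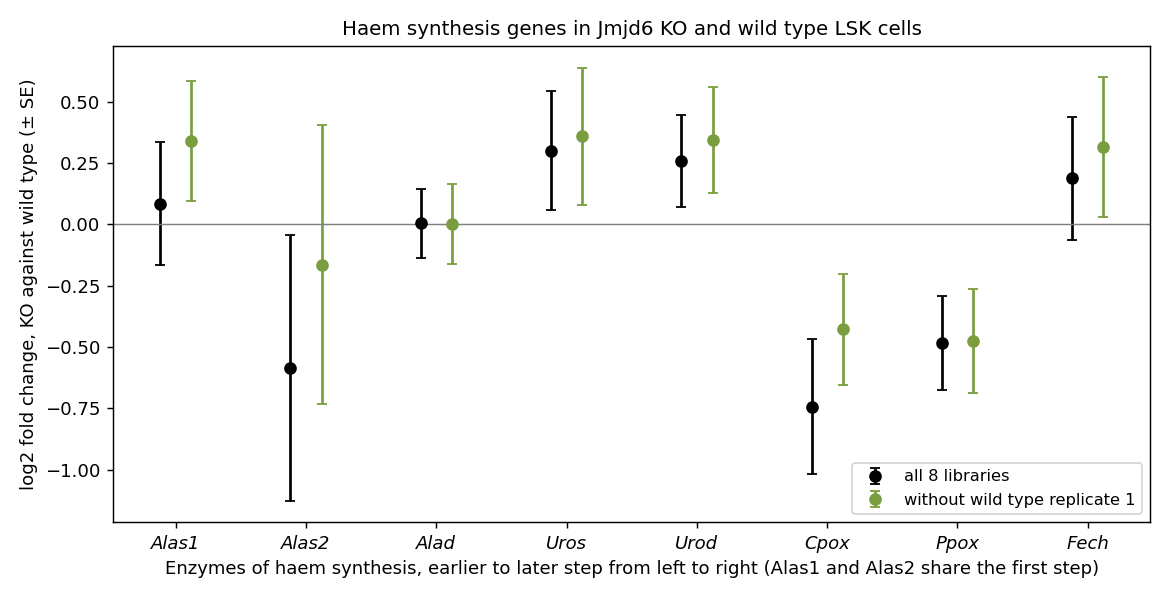
Log2 fold change (± SE of the edgeR fit) of 8 haem synthesis enzyme genes, ordered by step, for all 8 libraries (black) and without wild type replicate 1 (green). Cpox and Ppox lie at -0.74 and -0.48 with all libraries, while Uros, Urod and Fech lie between 0.19 and 0.30.

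Car1 and Car2 encode carbonic anhydrases, enzymes that interconvert carbon dioxide and bicarbonate, and lie 77904 bases apart on chromosome 3 (Car1 14766216 to 14808368, minus strand; Car2 14886273 to 14900770, plus strand). Car1 was among the most variable genes and Car2 among the steadiest. The SD of log2 CPM over the 8 libraries was 1.79 for Car1, above or equal to 99.7% of tested genes, and 0.07 for Car2, above or equal to 0.149%. Car1 read 339, 7.58, 12.9 and 41.2 CPM in wild type libraries 1 to 4 and 8.45, 15.6, 20.8 and 10.5 CPM in the KO libraries. Wild type replicate 4 was the second highest at 41.2 CPM, and the other 6 libraries lay between 7.58 and 20.8 CPM. Its log2 fold change was -2.85 ± 0.98 (SE, edgeR adjusted p = 0.746) with all libraries and -0.56 ± 0.52 (SE, edgeR adjusted p = 0.890) without wild type replicate 1; it was 0.19 when both libraries without Y-linked counts were left out as well. Car2 read 952, 847, 882 and 849 CPM in wild type libraries 1 to 4 and 854, 840, 918 and 926 CPM in the KO libraries. The groups overlapped, with means of 883 ± 49.1 and 884 ± 43.8 CPM (SD, n = 4), and the log2 fold change was 0.00 ± 0.13 (SE) and 0.06 ± 0.14 (SE) without wild type replicate 1.

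Elsewhere in the carbonic anhydrase family 7 more genes passed the filter, and 0 of the family was called by edgeR. Car3, which lies between Car1 and Car2, gave a log2 fold change 0.34, Car13, on the far side of Car1, 0.25, and Car9, a hypoxia-inducible member, 0.31. Car12, Car5b, Car14 and Car11 gave 1.07, -0.69, -0.11 and -0.84. Wild type replicate 1 was the highest library for Car1 and Car2 alone among these 9, against 14.1% of all tested genes. Car3 and Car13 read 13.9 and 7.18 CPM there, inside the ranges of 10.5 to 20.1 and 6.73 to 14.8 CPM in the other 7.

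Genes with profiles close to those of Car1 and Gata1 were sought by the root mean square difference of log2 CPM over the 8 libraries, each gene centred on its own mean, among 12214 candidates. Closest to Car1 were Ermap, at 0.45, and Rhd, which encodes a protein of the Rh blood group complex, at 0.58, followed by Mt1, Ces2g and Spire1 at 0.79, 0.81 and 0.88. In wild type replicate 1 these 4 genes beside Ermap read 27.1, 34.9, 38.6 and 24.2 CPM, and in the other 7 libraries 0.528 to 3.40, 3.87 to 9.91, 1.75 to 10.3 and 3.25 to 11.2 CPM. Closest to Gata1 were Lmna and Mfsd2b, both at 0.23, then Pgbd1, AI463229 and Cnr2 at 0.28, 0.34 and 0.35. Mfsd2b, which encodes a sphingosine 1-phosphate exporter of red cells and platelets, read 57.1, 16.9, 13.2 and 20.2 CPM in wild type libraries 1 to 4 and 33.8, 28.3, 44.0 and 24.5 CPM in the KO libraries. As for Gata1, the 3 wild type libraries other than replicate 1 lay below all KO libraries. Mfsd2b was picked for its likeness to Gata1 over these same libraries, so the shared order is not a separate observation. Among the 10 genes themselves Zfpm1 and Car2 were the closest at 0.39. Cpox and Tspan33 were 0.42 apart, Gata1 and Epor 0.44 and Car1 and Ermap 0.45, while Ermap and Zfpm1 were 1.88 apart. The measure is not scaled to a gene's spread, so genes that vary little come out close whatever their order. For Car2 and Zfpm1 the SD of log2 CPM over the 8 libraries was 0.07 and 0.38.

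Lists of other erythroid genes differed in how often wild type replicate 1 was the highest library. It was so for 2 of 13 haem synthesis genes, Cpox among them, against 14.1% of all tested genes. Among the globin genes it was so for 1 of the 3 tested. Of 12 early erythroid progenitor genes 11 were tested, and wild type replicate 1 was the highest library for 9 of them, against 14.1% of all tested genes. The 4 most abundant gave log2 fold changes 0.00 (Tfr2, transferrin receptor 2), -0.42 (Tfrc, the main transferrin receptor), 0.30 (Hemgn, hemogen) and 0.20 (Cnrip1), and none of the 11 passed by edgeR, with 4 above 0 and 7 below. Their log2 fold changes ran from -4.41 to 0.30, with a median of -0.42. Without wild type replicate 1 they ran from -1.86 to 0.98, with a median of 0.01. Tfrc read 236 CPM in wild type replicate 1 against 55.5 to 109 CPM in the other 7, and Tfr2 read 130 CPM there, within the range of 82.7 to 155 CPM. Of 16 red cell membrane and skeleton genes 11 were tested and 0 called by edgeR, with a median of -0.25 (-0.20 without wild type replicate 1), and wild type replicate 1 was the highest for 7. Their most abundant members, Gypc, Epb41, Tmod1 and Xk, gave log2 fold changes 0.08, -0.24, -0.12 and -0.25. Over the 11 tested the range was -2.93 to 0.50, and -1.59 to 0.95 without wild type replicate 1. Slc4a1, the red cell anion exchanger gene, did not exceed 0.411 CPM in any library.

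Globin transcripts were near the limit of counting. Of 11 listed genes 8 were in the table, Hba-x and Hbb-bh1 had 0 counts in every library, and 3 were tested. Hbb-b1, an adult beta globin gene, read 7.29, 2.99, 7.63 and 9.84 CPM in wild type libraries 1 to 4 and 1.67, 0.925, 1.30 and 2.17 CPM in the KO libraries, with no overlap and a log2 fold change -2.18 ± 0.43 (SE, edgeR adjusted p = 0.186; -2.14 without wild type replicate 1). Hbb-bs and Hba-a1 gave -0.90 and -1.12, with overlapping groups. The beta globin genes are near-identical copies, as are Hba-a1 and Hba-a2, so the split of reads among them is uncertain.

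The transcription factors that act with or beside GATA1 were read in the same way. Of 18 listed, 17 were tested and 0 called by edgeR, with 4 above 0, 13 below and a median of -0.10. The most abundant, Lmo2, Nfe2, Myb and Lyl1, gave log2 fold changes -0.07, 0.18, 0.13 and -0.15. Wild type replicate 1 was the highest library for 1 of the 17, Bcl11a, where it was so for 14.1% of all tested genes. With so few genes this count is near that share. Their summed level was 2470 CPM in wild type replicate 1, against 2793 to 3075 CPM over wild type replicates 2 to 4 and 2452 to 2820 CPM over the KO libraries.

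Markers of other cell types also differed between libraries. The summed level of 10 granulocyte-monocyte markers was 5599 CPM in wild type replicate 1, 1049 to 1332 CPM over wild type replicates 2 to 4 and 1639 to 2447 CPM over the KO libraries. Of the 9 tested, 7 were highest in wild type replicate 1, against 14.1% of all tested genes. Among them were Mpo at 3293 CPM against 691 to 1692 and Ctsg at 491 against 39.0 to 255 CPM. Prtn3 at 555 against 210 to 340 and Elane at 785 against 13.7 to 123 CPM were others. The 8 megakaryocyte markers summed to 416 to 559 CPM over the wild type and 364 to 423 CPM over the KO libraries, with replicate 1 the highest for 3 of 8, and the 8 B lineage markers to 559 to 817 and 526 to 917 CPM, with replicate 1 the highest for none of 7 tested. The 8 mast cell and basophil markers summed to 13.4 to 97.3 CPM over the wild type and 62.7 to 131 CPM over the KO libraries, wild type replicate 1 being the highest of its group at 97.3 CPM. The 7 T and NK markers summed to 135 to 241 and 283 to 392 CPM, almost all of it Nkg7, with Cd3e at 0 counts in 7 of the 8 libraries, and the 8 macrophage markers to 197 to 343 and 164 to 317 CPM. The 4 endothelial markers summed to 90.4 to 122 and 57.8 to 90.1 CPM, with Cdh5 and Kdr at no more than 1.32 CPM. The 7 genes of the LSK gate summed to 2475 to 3029 CPM over the wild type and 2633 to 2808 CPM over the KO libraries, with replicate 1 the highest for none. The 8 lineage markers that the sort uses summed to 176 to 568 CPM over the wild type and 249 to 637 CPM over the KO libraries. Most of this was Ptprc, which encodes CD45 of all white cells as well as the B220 form, at 484, 130, 514 and 446 CPM and 423, 455, 569 and 190 CPM. The part of these other cells in the erythroid values was not tested, and in bulk RNA fewer cells of a type and less RNA per cell cannot be told apart.

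**Figure D4:**
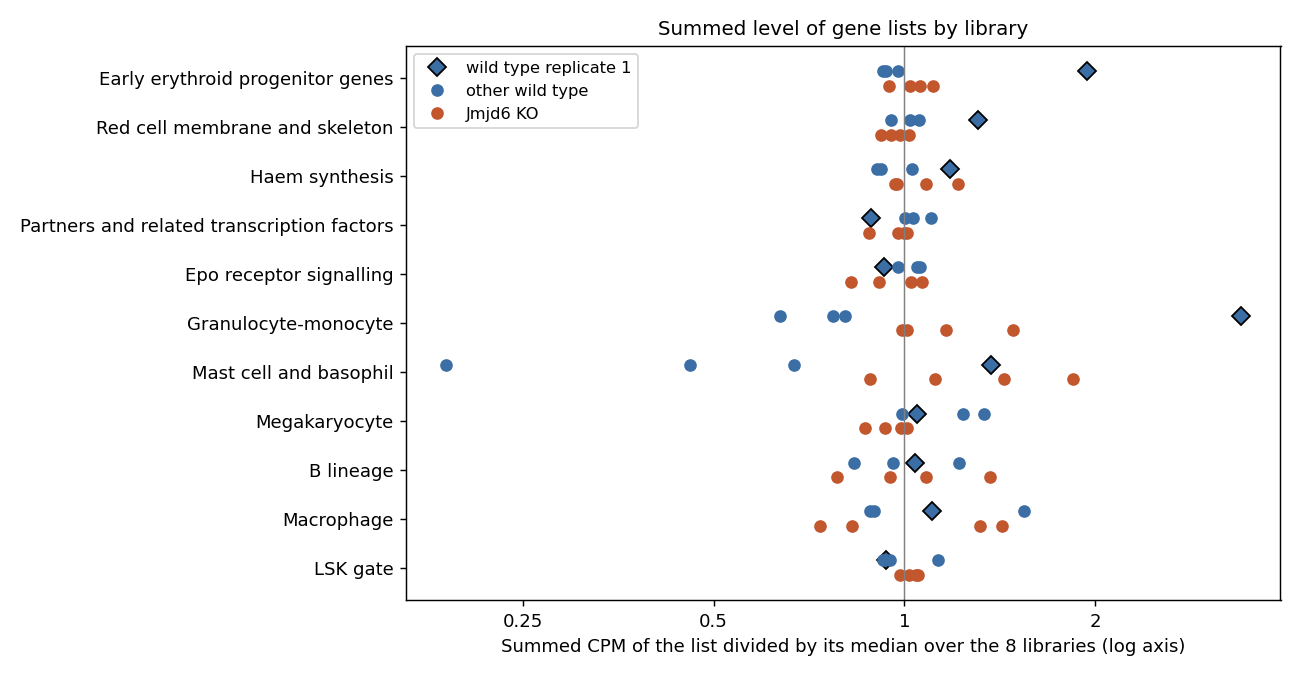
Summed CPM of each gene list in each library, divided by the list's median over the 8 libraries (log axis), with wild type replicate 1 as a diamond, the other wild type libraries in blue and KO in orange. The diamond stands furthest right for early erythroid progenitor genes, red cell membrane and skeleton genes and granulocyte-monocyte markers. It lies among the other libraries for megakaryocyte, B lineage and macrophage markers.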

How the data were processed

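The deposited table holds raw counts per gene symbol, 1 column per library. Reads had been aligned with HISAT2 to mm10, per the submitters' processing notes; the sources used here do not name the counting tool, the annotation or a strand setting. Columns were matched to samples by genotype and number. KO was compared with wild type over all 8 libraries by edgeR 4.0.16 (R 4.3.3), quasi-likelihood test, TMM scaling, filterByExpr (min.count 10, min.total.count 15), with Benjamini-Hochberg adjustment over 13439 genes. SE is the log2 fold change divided by the root of F. Log2 CPM used a prior count of 2. The common biological coefficient of variation was 27.8%. Scripts were tested on simulated counts. Replicate libraries differed beyond sampling noise (chi-square per degree of freedom 6.56 to 86.9).

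Alternatives were other scalings and filters, a replicate block, DESeq2 1.42.0, limma 3.58.1 voom with sample weights, leaving out each library and the 6 libraries with Y-linked counts; 2 further sets of left-out libraries were chosen after seeing the data. The members and lists were chosen with earlier results of these data known. Genes named beyond the 10 are the most abundant of each list (the haem enzymes, every tested carbonic anhydrase) and the 5 nearest profiles of Car1 and Gata1. Other genes named were chosen after their values were seen: Slamf1, Cd48, Slc4a1, Bcl11a, markers at or near 0, genes overlapping others and, in the closing part, Samd14 and Epb42. Values of some listed genes are not reported here. Positions are from GENCODE M21 (GRCm38, the assembly that mm10 names).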

Additional observations from a re-analysis of the deposited data

Results flagged for a closer look

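In 6 of the 20 sets of 4 libraries, 10 genes in each of 2 groups, the library at 1 end stood further from its group than Dixon's criterion allows (the gap to the nearest library divided by the range). The criterion is passed about 1 time in 20 for independent, normally distributed values. Here it was applied to CPM not on a log scale, in genes chosen with earlier results known. The 6 of 20 can therefore not be set against that rate. Of the 6, 5 were in wild type replicate 1: Car1 at 339 CPM, Ermap at 59.1 CPM, Klf1 at 39.8 CPM, Cpox at 34.9 CPM and Tspan33 at 8.94 CPM. The other was Zfpm1 in KO replicate 3, at 9.23 CPM where KO replicates 1, 2 and 4 read 18.2 to 18.8 CPM. Gata1 in KO replicate 3 came just short, with a ratio of 0.825. As these 5 genes share 1 library, they are not separate observations.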

How the results depend on the processing

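No erythroid gene was called in any of the 18 alternatives or at an adjusted p under 0.1 by edgeR, with Ermap given no adjusted p by DESeq2. Tspan33, Cpox and Gfi1b stayed below 0 in all 18, between -1.52 and -1.01, -0.85 and -0.31, and -0.52 and -0.02. The median of the 10 stayed below 0 except with the 5 libraries with Y-linked counts other than wild type replicate 1, at 0.11; there Klf1, Epor, Ermap and Car1 turned to 0.75, 0.56, 0.68 and 0.19. With wild type replicate 1 and KO replicate 3 both left out Klf1 gave 0.25. Leaving out 1 library at a time gave log2 fold changes from -0.00613 to 1.09 for Gata1, -1.34 to 0.32 for Klf1, -0.23 to 0.0438 for Zfpm1, -0.75 to 0.21 for Epor, -2.96 to 0.21 for Ermap and -0.0197 to 0.0571 for Car2. The upper ends were without wild type replicate 1, except Zfpm1 without KO replicate 3, and Gata1 was lowest without wild type replicate 3. By limma voom Zfpm1, Epor and Car2 gave 0.0732, 0.16 and -0.0483. In the 6 libraries with Y-linked counts Gata1, Zfpm1 and Car2 gave -0.0135, 0.0462 and -0.0344, and Car2 gave -0.0465 with library size only and -0.00886 with no filter. The cause of these turns was not tested beyond the libraries left out.

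Over all genes the 8 calls became 66 by DESeq2, 31 by limma voom, 4 in the 6 libraries, 4 and 5 in the 2 sets chosen after seeing the data (the 2 replicates left out together, and the 5 libraries), and 2 to 8 with 1 library left out (the library missing was wild type replicate 1, 2 or 3 or KO replicate 4 where 2 were called, KO replicate 2 where 3 were, and wild type replicate 4 or KO replicate 1 where 4 were). With the replicate block they were 3; the labels do not say that a number pairs samples, same-numbered deviations correlated between -0.19 and 0.03, and no library correlated best with its own number. Low counts limit Ermap, with 12 to 71 reads per library outside wild type replicate 1, and Tspan33, with 23 to 81.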

Other observations

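Besides Ppox and Hbb-b1, described above, Samd14 and Epb42 lay lower in every KO library than in every wild type library, as Tspan33 and Cpox did. They come from the 11 tested early erythroid progenitor genes and the 11 tested red cell membrane and skeleton genes. That layout was held by 2.11% of all tested genes, and by 4.49% without wild type replicate 1. Samd14, a gene of erythroid progenitors, read 11.9, 7.38, 6.63 and 3.85 CPM in wild type libraries 1 to 4 and 3.43, 2.37, 1.37 and 3.18 CPM in the KO libraries; its log2 fold change was -1.52 and -1.18 without wild type replicate 1 (adjusted p = 0.501 and 0.688 by edgeR). Epb42, which encodes a red cell membrane protein, read 2.65, 1.26, 1.10 and 0.946 and 0.176, 0.308, 0.00 and 0.930 CPM, with 0 counts in KO replicate 3 and log2 fold changes of -2.01 and -1.59 (adjusted p = 0.772 and 0.836 by edgeR). Both were singled out after their values were seen, and neither passed over all genes.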
